A study of Mus musculus with 9 samples.

Results

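Cerebellum of SmoA1 mice that lack Pycard was compared with cerebellum of younger wild-type mice, over 4 arrays out of the 9 in the series. These 4 are the arrays whose own channel is labelled Pycard knockout, and the mean of their log2 ratios was tested against 0 for every annotated gene. The other 5 arrays carry Pycard wild-type SmoA1 cerebellum and do not enter this test. They serve for differences between the genotypes, ranges in the figures, the check of replicate numbers and correlations with Creb3l3. All 9 SmoA1 samples were taken at postnatal day 20, and each was labelled with Cy5. The common reference, labelled with Cy3, was a pool of cerebella of wild-type mice at postnatal day 16, so that a positive log2 ratio means more signal in the SmoA1 sample than in the pool.

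SmoA1 is an activated form of Smoothened, the membrane protein that passes on the Hedgehog signal. In the mouse line that bears this name it is expressed from the Neurod2 promoter in granule neuron precursors, which divide in the outer layer of the young cerebellum, and many of the mice develop medulloblastoma. Pycard encodes ASC, the adaptor through which inflammasome sensors recruit and activate caspase-1, which matures interleukin-1 beta and interleukin-18. Granule neuron precursors stop dividing and move inward to become granule neurons during the first weeks after birth. Myelin, the glia around it and the Purkinje cell layer mature over the same weeks.

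Each ratio sets a sample that differs from the pool in several ways at once. The SmoA1 transgene, the loss of Pycard, the 4 days between postnatal day 20 and day 16, the dye and the pooling of the reference cannot be told apart in these ratios, because no array has the dyes exchanged and no array carries another reference. The test against 0 leaves out the spread of the pool itself. The labels do not call the arrays separate animals, so p-values here cover the spread among arrays alone.

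Pycard, averaged over its features, was far below the pool on every knockout array. It checks the labels only in part, since the direction of the ratio was also read from it. Its log2 ratios were -2.83, -2.43, -1.48 and -2.83 on knockout 1 to 4, with a mean of -2.39 ± 0.64 (SD, n = 4; limma adjusted p = 0.0421). On the wild-type arrays its mean was 1.08 ± 0.26 (SD, n = 5), and the groups did not overlap. Of its 2 features, 1 had a mean of -3.44 and the other of -1.35 on the knockout arrays. The latter stood at -1.53, -1.66, -0.05 and -2.17 on knockout 1 to 4, so that it lay near 0 on knockout 3. Neither the stretch of Pycard that each feature reads nor the deleted stretch is known from the labels.

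The 4 arrays differed among themselves in ways that the labels do not name. The Y-linked gene Eif2s3y had log2 ratios of 0.11 and 0.36 on knockout 1 and 2, and of -6.47 and -9.78 on knockout 3 and 4. Kdm5d, also Y-linked, split in the same way, at 0.04, -0.15, -3.46 and -4.57. Knockout 1 and 2 thus do not carry the same RNA as knockout 3 and 4, while within each of these pairs the spread may be technical. Markers of the choroid plexus, the epithelium that secretes cerebrospinal fluid, were far below the pool on the other pair of arrays. Over 14 measured markers the mean was -2.01 on knockout 1, -1.84 on knockout 2, -0.08 on knockout 3 and 0.10 on knockout 4, and none of the 14 passed the test. The transthyretin gene Ttr, for example, stood at -4.63, -4.52, 0.11 and 0.42. The SD over all features was 0.552 and 0.560 on knockout 1 and 2 and 0.882 and 0.739 on knockout 3 and 4, and the correlation between 2 knockout arrays over genes ran from 0.307 to 0.653. The part of these differences in the results was tested only by leaving out each array in turn.

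**Figure D1:**
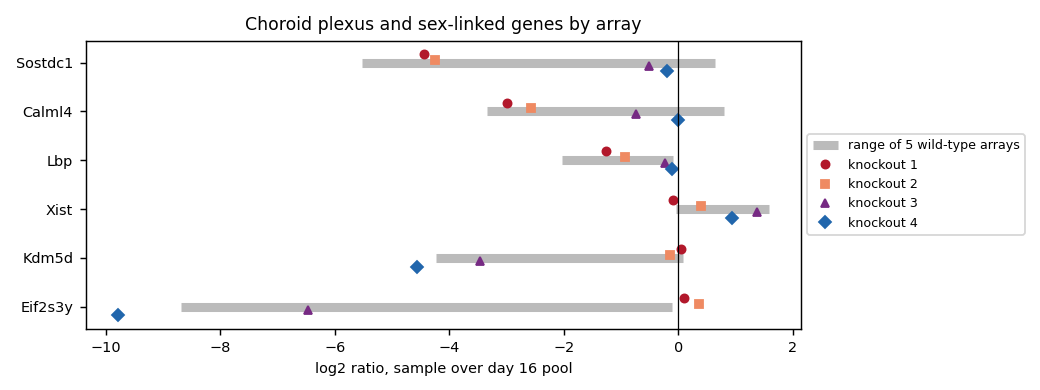
Log2 ratio of the sample over the day 16 pool for 3 choroid plexus genes and 3 sex-linked genes, with 1 point for each knockout array and a grey bar for the range of the 5 wild-type arrays. Knockout 1 and 2 lie low for Sostdc1, Calml4 and Lbp, while knockout 3 and 4 lie low for the Y-linked genes Kdm5d and Eif2s3y.

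Across 19087 annotated genes, 360 were higher in Pycard knockout SmoA1 cerebellum than in the pool (1.89% of genes tested) and 326 were lower (1.71%), by limma with a Benjamini-Hochberg adjusted p under 0.05. Among the genes higher by at least 1 on the log2 scale were 171 (0.896%), and among those lower by at least 1 were 63 (0.33%). The 12 highest genes included Creb3l3, Cxcl10 and 5 genes of cell division, and the 12 lowest included Pycard, 2 chemokine genes and the Wnt inhibitor gene Wif1. All 686 called genes (3.59%) had their 4 arrays on one side of 0, with an absolute mean from 0.46 to 3.72 and a median of 0.82. Over all genes, the 4 arrays were above 0 in 20.5% and below 0 in 18.4%.

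The calls rest on 4 arrays and lie close to the threshold. The smallest adjusted p was 0.00712, shared by 2 genes, Tmem87a and the numbered transcript 4930412C18Rik (mean -2.95, named here after its value was seen). Without knockout 2 limma called 0 genes (3209 with an unadjusted p under 0.05), without knockout 3 it called 7, without knockout 4 it called 11 and without knockout 1 it called 137, where 5379 genes (28.2%) had an unadjusted p under 0.05 with all 4 arrays. With a trended robust prior 0 genes were called (5467 with an unadjusted p under 0.05), and with unnamed features included 4 were. Every call against the pool that is named here was thus lost without knockout 2.

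**Figure D2:**
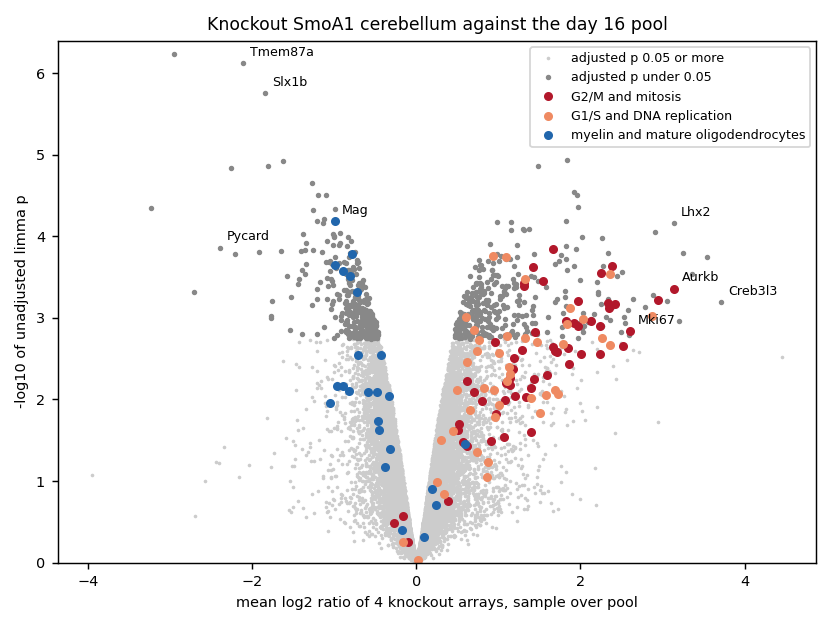
Each point is 1 of 19087 annotated genes, with the mean log2 ratio of the 4 knockout arrays on the horizontal axis and -log10 of the unadjusted limma p on the vertical axis. Coloured points are the members of 3 lists, and most G2/M members lie to the right of 0 while most myelin members lie to the left.

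Genes of mitosis were the largest group of called genes among the 32 lists examined. Of 56 measured genes of G2/M and mitosis, 20 were higher than the pool (35.7%, beside 1.89% of all genes), 0 were lower and 36 did not pass. All 4 arrays were above 0 in 48 of the 56, and the median of the members' means was 1.41, beside 0.01 over all annotated genes. The number of called members was 27 without knockout 1 and 0 without knockout 2, knockout 3 or knockout 4, so these calls need each of those 3 arrays. The list mean was 0.53 on knockout 1, 1.77 on knockout 2, 2.13 on knockout 3 and 1.38 on knockout 4. Knockout 1 was the lowest array for this list, and knockout 3 the highest.

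Kinases that drive mitosis were among the strongest. Aurkb, the kinase of the chromosomal passenger complex, stood at 1.60, 3.71, 4.07 and 3.20 on knockout 1 to 4, with a mean of 3.14 ± 1.09 (SD, n = 4; limma adjusted p = 0.0425). Birc5, which encodes survivin of the same complex, had log2 ratios of 1.55, 3.50, 4.05 and 2.65. The mean of Birc5 was 2.94 ± 1.09 (SD, n = 4; limma adjusted p = 0.0425). In both genes knockout 1 was the lowest array and no array came near 0.

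Plk1, a kinase needed for mitotic entry and spindle assembly, varied less. Its ratios were 1.09, 1.89, 2.04 and 1.62, with a mean of 1.66 ± 0.42 (SD, n = 4; limma adjusted p = 0.0421). Bub1b, a kinase-like protein of the spindle checkpoint, stood at 1.69, 2.76, 3.20 and 1.91, with a mean of 2.39 ± 0.71 (SD, n = 4; limma adjusted p = 0.0421). Mki67, the gene of the proliferation antigen Ki-67, stood at 1.34, 3.36, 3.78 and 1.94, with a mean of 2.61 ± 1.15 (SD, n = 4; limma adjusted p = 0.0488). Pbk, a mitotic kinase gene outside the list, was called as well, at 1.89, 3.40, 3.44 and 2.91. Further called members were the kinesins Kif4 (2.13), Kif20a (2.34), Kif23 (1.83), Kif2c (1.97) and Kif15 (1.55), the centromere gene Cenpf (2.25), the spindle factor gene Tpx2 (2.34) and the topoisomerase gene Top2a (2.24), each given as a mean log2 ratio. The 3 members below 0 were Nek2 (-0.27), Pttg1 (-0.16) and Anln (-0.10), and none of them passed.

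DNA replication genes were higher as well. Of 43 measured genes of G1/S and DNA replication, 13 passed as higher (30.2%, beside 1.89% of all genes), 0 as lower and 30 in neither direction. In 38 of the 43 all 4 arrays were above 0, and the median of the means was 1.01. The list mean was 0.46, 1.34, 1.74 and 1.01 on knockout 1 to 4, the same order of arrays as for the mitotic genes.

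Uhrf1, which reads hemimethylated DNA at replication forks and recruits the maintenance methyltransferase, led this list. Its log2 ratios were 1.61, 3.54, 4.12 and 2.21, with a mean of 2.87 ± 1.16 (SD, n = 4; limma adjusted p = 0.0446). Rfc3, a subunit of the clamp loader, stood at 0.73, 1.20, 1.28 and 1.17, with a mean of 1.10 ± 0.25 (SD, n = 4; limma adjusted p = 0.0421). Pole, the catalytic subunit of DNA polymerase epsilon, stood at 1.19, 0.82, 0.88 and 0.83, highest on knockout 1. That high value comes from 1 of its 2 features, at 1.89, 0.07, 0.10 and 0.36, while the other was lowest on knockout 1, at 0.50, 1.58, 1.67 and 1.30. Single members departed from the order of the list means in other ways too, such as the ribonucleotide reductase gene Rrm1, lowest on knockout 4 (0.59, 0.79, 0.63 and 0.44). Called in the same direction were the S-phase cyclin gene Ccna2 (mean 2.36), the chromatin assembly gene Chaf1b (2.26), the thymidine kinase gene Tk1 (2.03), the transcription factor gene E2f2 (1.88), the sliding clamp gene Pcna (1.11) and the helicase subunit gene Mcm7 (1.32). The helicase subunit gene Mcm4 had a mean of 0.30 and the cyclin gene Ccne2 a mean of -0.16, and neither passed.

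**Figure D3:**
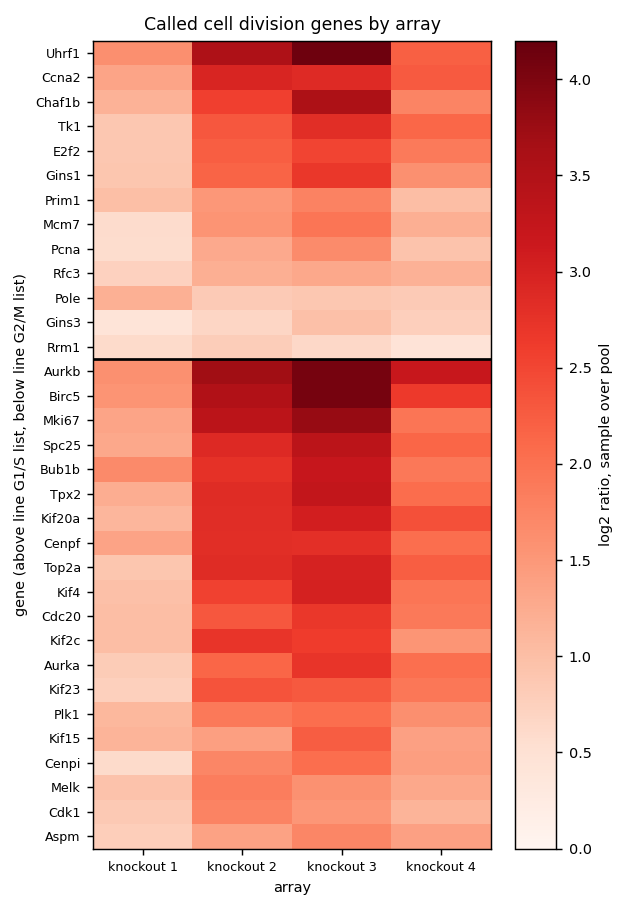
Log2 ratio of sample over pool for the 33 called genes of the G1/S and G2/M lists (rows) on the 4 knockout arrays (columns), with deeper red for a higher ratio. The column of knockout 1 is the palest for most genes and that of knockout 3 the deepest, and Pole is the gene with its highest value on knockout 1.

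The promoters of the mitotic genes were searched for short elements known from genes of the cell cycle. The cell cycle homology region, searched as TTTGAA, and the CCAAT box, searched as CCAAT, are elements through which the DREAM complex and NF-Y are known to act on genes of the late cell cycle, and an E2F element was searched as GGCGGGAA. Both strands were searched in windows of 300 bases, from 250 before to 50 after each start, taken from RefSeq on GRCm38.p6. Of 18900 windows, belonging to 15306 of the measured genes, 14.8% held TTTGAA, 37.9% held CCAAT and 3.02% held GGCGGGAA. Among windows of called G2/M genes TTTGAA was present in 14 of 17 (82.4%) and CCAAT in 13 of 17 (76.5%), while GGCGGGAA was present in 0 of 17. In the whole G2/M list TTTGAA was present in 33 of 49 windows (67.3%) and CCAAT in 34 of 49 (69.4%). High shares thus belong to the list itself as well as to its called members, and the difference was not tested. Among windows of called G1/S genes the shares were 2 of 13 (15.4%) for TTTGAA, 11 of 13 (84.6%) for CCAAT and 3 of 13 (23.1%) for GGCGGGAA. Genes called higher as a whole held TTTGAA in 20.5% of their windows and genes called lower in 6.59%. A match is only a run of letters in this window.

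The sequences given next were chosen after the values were seen and by the elements themselves. They are the 250 bases before the start of 4 called G2/M genes and of Uhrf1, on GRCm38.p6. Each is written 5′ to 3′ on the strand of the gene. The G2/M genes had to hold both TTTGAA and CCAAT in these bases, and the G1/S gene had to hold GGCGGGAA. The presence of these elements below thus follows from the choice. Capitals mark the 3 elements, on either strand. Cdc20 activates the anaphase-promoting complex, Cdk1 is the kinase of mitotic entry, and Top2a untangles sister chromatids. Their mean log2 ratios were 1.97 for Cdc20, 2.61 for Mki67, 1.32 for Cdk1, 2.24 for Top2a and 2.87 for Uhrf1.
Cdc20 (chr4:118437344-118437593, minus strand): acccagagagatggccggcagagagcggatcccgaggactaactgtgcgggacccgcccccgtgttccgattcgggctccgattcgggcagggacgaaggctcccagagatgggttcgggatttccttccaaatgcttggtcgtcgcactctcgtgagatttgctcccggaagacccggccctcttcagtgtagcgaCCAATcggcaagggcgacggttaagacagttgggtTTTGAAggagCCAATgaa
Mki67 (chr7:135716380-135716629, minus strand): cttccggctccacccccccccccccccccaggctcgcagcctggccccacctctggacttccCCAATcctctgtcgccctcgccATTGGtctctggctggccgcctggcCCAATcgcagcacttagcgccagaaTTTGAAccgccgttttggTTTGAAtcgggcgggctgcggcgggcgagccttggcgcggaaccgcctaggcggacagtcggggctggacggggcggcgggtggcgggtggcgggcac
Cdk1 (chr10:69352913-69353162, minus strand): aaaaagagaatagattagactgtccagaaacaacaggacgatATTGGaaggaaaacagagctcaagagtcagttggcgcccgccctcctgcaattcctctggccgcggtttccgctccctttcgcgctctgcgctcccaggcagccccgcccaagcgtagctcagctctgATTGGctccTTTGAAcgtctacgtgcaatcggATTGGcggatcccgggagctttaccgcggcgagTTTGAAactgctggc
Top2a (chr11:99024190-99024439, minus strand): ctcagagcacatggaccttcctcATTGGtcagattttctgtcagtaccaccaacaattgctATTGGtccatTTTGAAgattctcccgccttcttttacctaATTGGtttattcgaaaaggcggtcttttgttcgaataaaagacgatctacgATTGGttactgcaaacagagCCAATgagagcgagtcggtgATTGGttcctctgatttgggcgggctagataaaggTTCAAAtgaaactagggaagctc
Uhrf1 (chr17:56303087-56303336, plus strand): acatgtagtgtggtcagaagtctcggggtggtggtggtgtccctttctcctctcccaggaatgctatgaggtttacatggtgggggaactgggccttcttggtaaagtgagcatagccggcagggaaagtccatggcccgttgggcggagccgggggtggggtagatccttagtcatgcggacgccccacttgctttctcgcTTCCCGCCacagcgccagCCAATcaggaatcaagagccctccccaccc
Mki67 and Cdk1 each hold TTTGAA in 2 places and the CCAAT box in 3. Top2a holds the CCAAT box in 6 places. Uhrf1 holds the E2F element once, together with 1 CCAAT box and no TTTGAA.

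Histone genes and DNA repair genes, many of which are transcribed in S phase, included further calls above the pool. Of 19 measured genes of histones and chromatin assembly, 5 were called higher (26.3%, beside 1.89% of all genes) and 0 lower. The median of the means was 0.81. The 5 called genes were the linker histone gene H1f5 (mean 2.55), the core histone genes H2ac4 (2.53), H3c1 (1.78) and H4c1 (1.19), and Hmgb2 (2.02), a high mobility group gene. The histone H2B gene H2bc18, which is outside the list, went the other way, at -2.01, -1.91, -2.66 and -2.45, with a mean of -2.26 ± 0.36 (SD, n = 4; limma adjusted p = 0.0350). Copies of histone genes are near-identical, and probes for them can share signal, so single histone genes are uncertain.

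In the list of DNA damage response and repair 4 of 25 were called higher (16%, beside 1.89% of all genes) and 0 lower. Exo1, an exonuclease of mismatch repair and end resection, stood at 1.41, 3.44, 3.38 and 2.35, with a mean of 2.64 ± 0.97 (SD, n = 4; limma adjusted p = 0.0425). Bard1, the partner of BRCA1, had a mean of 1.83 ± 0.51 (SD, n = 4; limma adjusted p = 0.0421), and the fork protection genes Timeless and Tipin had means of 1.04 and 0.80 and were called too. The cohesin acetyltransferase gene Esco2, outside this list, was called at 1.44, 3.29, 3.92 and 2.48.

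Regulators of entry into and exit from the cycle held a few calls. Of 20 cyclin-dependent kinase inhibitor and E2F family genes 3 were called higher (15%, beside 1.89% of all genes) and 0 lower. Cdkn2c, which encodes the inhibitor p18 of CDK4 and CDK6, stood at 1.01, 1.25, 1.30 and 1.63, with a mean of 1.30 ± 0.25 (SD, n = 4; limma adjusted p = 0.0421). Rbl1, the pocket protein p107, had a mean of 0.92 ± 0.21 (SD, n = 4; limma adjusted p = 0.0421). Cdkn1b, which encodes p27, did not pass and was at -0.42, 0.11, -0.28 and 1.39, with 1 of its 12 features below 0.

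The usual read-outs of Hedgehog signalling were not called. Of 23 measured genes of the Hedgehog pathway 1 was called higher and 1 lower (4.35% each, beside 1.89% and 1.71% of all genes), and the median of the means was 0.05. Gli1, the transcription factor gene whose level is the usual read-out of the pathway, stood at -0.12, 0.31, 0.83 and -0.15, with a mean of 0.22 ± 0.46 (SD, n = 4; limma adjusted p = 0.482). Its arrays lay on both sides of 0. The receptor gene Ptch1, also a target, was at -0.51, -0.29, -0.23 and -0.07, below 0 on every array without passing (limma adjusted p = 0.161, n = 4), and 2 of its 13 features had means above 0.

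Smo itself, the gene of which SmoA1 is a form, was above 0 on every array as an average of features, without passing. Its log2 ratios were 0.70, 0.74, 0.95 and 1.68, with a mean of 1.02 ± 0.45 (SD, n = 4; limma adjusted p = 0.0526). Its 3 features disagreed, with means of 2.42, 0.51 and 0.13. The first of them was at 4.97 on knockout 4, and the last was below 0 on knockout 1 and 4 (-0.21 and -0.23). Mycn, a Hedgehog target that drives division of granule neuron precursors, was the called higher member, at 0.69, 2.30, 2.26 and 1.83, with a mean of 1.77 ± 0.75 (SD, n = 4; limma adjusted p = 0.0465). Ccnd2 and Ccnd1, cyclin D genes, had means of 1.79 (limma adjusted p = 0.0530, n = 4) and 0.35 (limma adjusted p = 0.233, n = 4). The growth factor gene Igf2 was the called lower member, at -1.02, -0.68, -0.50 and -0.94.

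Genes of granule neuron progenitors were mixed. Of 28 measured markers 5 were called higher (17.9%) and 1 lower (3.57%), beside 1.89% and 1.71% of all genes. The median of the means was 0.48. Nhlh1, a transcription factor gene of early differentiating granule cells, stood at 1.48, 2.78, 2.88 and 2.22, with a mean of 2.34 ± 0.64 (SD, n = 4; limma adjusted p = 0.0421). Insm1 (mean 2.09), Barhl1 (1.06), Tlx3 (0.86) and Zic1 (0.82), all transcription factor genes, were called in the same direction. Eomes, which marks unipolar brush cells in the cerebellum, was called lower, at -1.54, -0.89, -1.96 and -1.36. Atoh1, the transcription factor that defines granule neuron precursors, was at 0.16, 1.23, 2.32 and 1.76 and did not pass (mean 1.37 ± 0.92, SD, n = 4; limma adjusted p = 0.0840).

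Markers of mature granule neurons, Purkinje cells and interneurons were mostly below the pool, and none passed the test. Of 24 granule neuron maturation genes, 19 Purkinje cell genes and 17 interneuron genes 0 were called in either direction, with an unadjusted p under 0.05 in 27 of the 60. The median of the means was -0.23 for maturation genes and -0.42 for Purkinje cell genes, and 13 of the 19 Purkinje cell genes were below 0 on every array. Gabra6, the GABA receptor subunit of granule neurons, stood at 0.01, -0.65, -0.84 and 0.10. Calb1, the calbindin of Purkinje cells, stood at -0.50, -0.58, -1.45 and -0.44, lowest on knockout 3. Pde1c, the maturation gene with the smallest p, went the other way, at 0.71, 0.92, 1.51 and 0.45 (limma adjusted p = 0.0618, n = 4). Nxph2 of the interneuron list was also above 0, at 0.14, 0.56, 0.34 and 5.07. The mean was above 0 in 3 maturation genes, 2 Purkinje cell genes and 5 interneuron genes, and below 0 in 21, 17 and 12. Since the reference is cerebellum too, ratios near 0 of such markers are those of one cerebellar sample against another. In a bulk sample fewer cells of a type and less RNA per cell cannot be told apart.

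Myelin genes included the largest number of calls below the pool among the lists. Of 24 measured genes of myelin and mature oligodendrocytes 6 were called lower (25%, beside 1.71% of all genes) and 0 higher, 18 were below 0 on every array, and the median of the means was -0.53. The list mean was -0.47, -0.58, -0.56 and -0.41 on knockout 1 to 4. Mag, an adhesion protein of the innermost myelin wrap, stood at -1.04, -0.84, -1.12 and -0.97, with a mean of -0.99 ± 0.12 (SD, n = 4; limma adjusted p = 0.0421). Cnp, an enzyme of non-compact myelin, stood at -0.84, -0.67, -0.76 and -0.85, with a mean of -0.78 ± 0.08 (SD, n = 4; limma adjusted p = 0.0421). The myelin genes Mal (mean -0.99), Mog (-0.89), Mobp (-0.81) and Hapln2 (-0.72) completed the called members. Mbp, the major myelin basic protein gene, was at -0.41, -0.39, -0.38 and -0.52 and did not pass (limma adjusted p = 0.0557, n = 4), with 1 of its 12 features above 0.

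The further lists given here, of glia other than microglia, vessels, meninges, ependyma and blood, each held only 1 to 3 calls. All of these were below the pool, where 1.71% of all genes were called lower. Of 17 genes of oligodendrocyte precursors 1 was called lower (5.88%), the matrix gene Tnr (mean -0.77), while Pdgfra, the receptor that marks these precursors, had a mean of 0.93 without passing (limma adjusted p = 0.0746, n = 4). Of 25 genes of astrocytes and Bergmann glia 1 was called lower (4%), Timp4 (-0.51), and Gfap lay on both sides of 0. Of 24 endothelial and pericyte genes 2 were called lower (8.33%), Abcc9 (-0.98) and Kcnj8 (-0.54), which encode both subunits of the ATP-sensitive potassium channel of pericytes. Of 22 genes of meningeal fibroblasts 3 were called lower (13.6%), the collagen genes Col1a1 (-0.87) and Col1a2 (-0.65) and Igf2 (-0.79). Of 21 genes of ependyma and motile cilia 1 was called lower (4.76%), the dynein gene Dnah11 (-0.54), and of 9 red blood cell genes 1 (11.1%), the iron importer gene Slc25a37 (-0.81). The value of Slc25a37 rests on 1 of its 3 features, whose means were -2.54, -0.18 and 0.28. The array means of these lists lay between -0.48 and 0.47.

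Markers of regions that neighbour the cerebellum were examined because dissection sets how much of them a sample holds. Of 31 such genes 1 was called higher (3.23%) and 2 lower (6.45%), beside 1.89% and 1.71% of all genes. Neurod6, a transcription factor gene of forebrain excitatory neurons, stood at 0.96, 1.39, 1.81 and 1.57. Th, the rate-limiting enzyme of catecholamine synthesis, stood at -0.86, -0.65, -1.09 and -0.80. En1, a homeobox gene of the midbrain and cerebellum, stood at -2.14, -1.66, -1.53 and -0.99. The list mean ran from 0.02 to 0.23 over the 4 arrays.

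**Figure D4:**
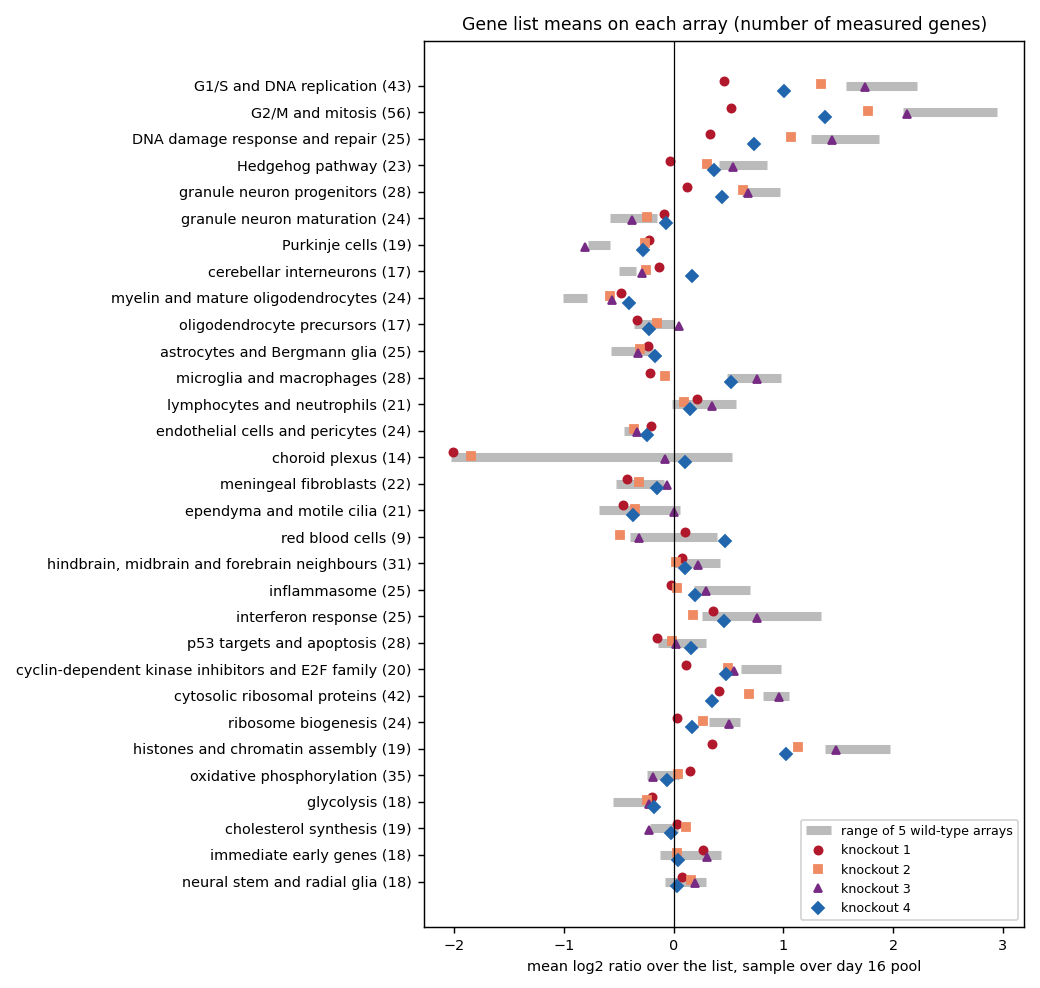
Mean log2 ratio of sample over pool for each gene list, with 1 point for each of the 4 knockout arrays and a grey bar for the range of the 5 wild-type arrays. The G2/M, G1/S, histone and repair lists lie to the right on every knockout array, the myelin list lies to the left, and the choroid plexus points fall into 2 pairs.

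Apart from Pycard and Casp1, no inflammasome gene passed the test. Of 25 measured members 1 was called higher (4%) and 1, Pycard itself, lower, beside 1.89% and 1.71% of all genes. Casp1, the protease that ASC activates, stood at 0.71, 0.68, 0.89 and 0.77, with a mean of 0.76 ± 0.09 (SD, n = 4; limma adjusted p = 0.0421). Its 4 arrays lay close together and all above 0. The substrate genes of caspase-1 did not pass, with means of 0.36 for Il1b, -0.01 for Il18 and 1.08 for the pore-forming gasdermin gene Gsdmd. The sensor genes Nlrp3 (0.15), Nlrc4 (-0.43), Aim2 (-0.74) and Nlrp6 (0.51) did not pass either.

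Microglia and macrophage markers differed more between the arrays than they differed from the pool. None of 28 measured markers passed, and the list mean was -0.22, -0.08, 0.76 and 0.52 on knockout 1 to 4. Aif1, the gene of the microglial protein Iba1, stood at 0.01, 0.36, 1.43 and 0.94. Lyz2, a lysozyme gene of macrophages, stood at 0.04, 0.74, 2.21 and 1.49. In both, knockout 1 was the lowest array and knockout 3 the highest. The 2 members with the smallest p, Cd163 and Ptprc, lay below 0 on every array. Cd163 stood at -0.65, -0.57, -0.39 and -0.20 (limma adjusted p = 0.0746, n = 4). Ptprc stood at -0.62, -0.59, -0.28 and -0.14 (limma adjusted p = 0.103, n = 4). Of the 28 markers, 19 had a mean above 0 and 9 below. None of 21 lymphocyte and neutrophil markers passed, and the cytotoxic granule gene Gzma ran from -1.66 on knockout 3 to 3.38 on knockout 1.

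Interferon response genes held 3 called members of 25 (12%), all higher, beside 1.89% of all genes. Cxcl10, a chemokine that attracts T cells, stood at 2.14, 2.90, 4.68 and 2.48, with a mean of 3.05 ± 1.13 (SD, n = 4; limma adjusted p = 0.0425). Ifit3, an antiviral effector gene, had a mean of 1.12 ± 0.33 (SD, n = 4; limma adjusted p = 0.0421), and the ubiquitin-like modifier gene Isg15 a mean of 0.78 ± 0.12 (SD, n = 4; limma adjusted p = 0.0421). The lymphoid chemokine genes Ccl21c and Ccl19, ligands of CCR7, were called lower. Ccl21c stood at -2.07, -2.10, -2.57 and -4.10, and Ccl19 at -2.02, -2.19, -0.73 and -2.15. Mouse Ccl21 genes are near-identical copies, so the value of Ccl21c may not be that of 1 gene. Of 28 genes of p53 targets and apoptosis 1 was called higher (3.57%, beside 1.89% of all genes), Eda2r (1.82), a receptor gene induced by p53.

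Genes of cytosolic ribosomal proteins lay above the pool almost throughout, at a lower size than the cell division genes. Of 42 measured genes 39 were above 0 on every array, beside 20.5% of all genes, and the median of the means was 0.56. The test called 6 higher (14.3%, beside 1.89% of all genes) and 0 lower. The 6 were Rps10 (0.90), Rpl12 (0.85), Rps7 (0.85), Rps15 (0.78), Rps6 (0.74) and Rps20 (0.74). Rps10 stood at 0.90, 1.02, 0.98 and 0.72 on knockout 1 to 4. Ribosome biogenesis had 1 gene of 24 called higher (4.17%, beside 1.89% of all genes), Polr1b (0.73), the second largest subunit of RNA polymerase I. Processed pseudogenes share sequence with most ribosomal protein genes, and a probe may read both.

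Energy and lipid metabolism showed almost no calls. Of 35 genes of oxidative phosphorylation and 19 of cholesterol synthesis 0 were called, with an unadjusted p under 0.05 in 8 and 4 of them. Of 18 glycolysis genes 1 was called lower (5.56%, beside 1.71% of all genes), the lactate transporter gene Slc16a1, at -1.34, -0.85, -1.27 and -0.64. None of 18 immediate early genes passed, and the zinc finger gene Egr2 stood at 0.40, 1.90, 2.01 and 2.21 (limma adjusted p = 0.0566, n = 4). Of 18 neural stem and radial glia genes 2 were called higher (11.1%, beside 1.89% of all genes). They were the chromatin factor gene Hmga2 (1.58, over 3 features with means from 0.004 to 2.69) and the Notch target Hes5 (1.05).

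The highest called genes outside the lists were genes not usually described in cerebellum. Creb3l3, a membrane-bound transcription factor gene of liver and intestine, had the highest mean, with 4.43, 3.90, 4.83 and 1.70 on knockout 1 to 4 (mean 3.72 ± 1.40, SD, n = 4; limma adjusted p = 0.0425). Duox2, an oxidase of the thyroid and mucosal epithelia, stood at 4.38, 3.74, 3.96 and 2.06. Syt6, a synaptotagmin gene, stood at 3.85, 3.23, 4.43 and 1.93, and Dnajb8, a chaperone gene of the testis, at 3.45, 2.97, 4.39 and 2.20. In these genes knockout 4 was the lowest array, whereas knockout 1 was the lowest in most genes of cell division. Lhx2, a LIM homeobox gene of the developing forebrain and eye, stood at 2.05, 3.57, 3.66 and 3.27 (mean 3.14 ± 0.74, SD, n = 4; limma adjusted p = 0.0421), with knockout 1 lowest.

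Among the lowest called genes, Tmem87a, which encodes a membrane protein of the Golgi, had almost the same ratio on every knockout array. It stood at -2.07, -2.17, -2.17 and -2.03, with a mean of -2.11 ± 0.07 (SD, n = 4; limma adjusted p = 0.00712). Wif1, a secreted inhibitor of Wnt ligands, stood at -2.04, -1.50, -2.96 and -2.32. Gchfr, the feedback regulator of tetrahydrobiopterin synthesis, stood at -1.58, -1.62, -2.66 and -1.79. Also called with means between -1.77 and -1.63 were the urotensin gene Uts2, Tmem212, Plac9a and the diacylglycerol kinase gene Dgkh. None of the 4 knockout arrays came near 0 for Tmem87a, Wif1 or Gchfr.

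**Figure D5:**
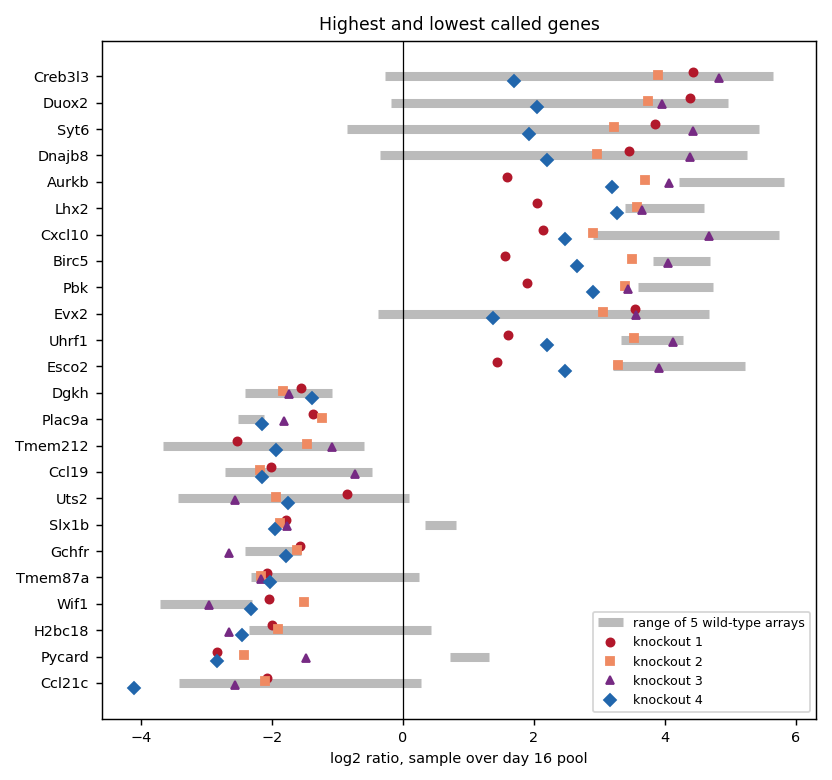
Log2 ratio of sample over pool for the 12 highest and the 12 lowest called genes, with 1 point for each knockout array and a grey bar for the range of the 5 wild-type arrays. Most grey bars overlap the knockout points, while those of Pycard, Slx1b, Aurkb and Pbk do not.

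Whether a ratio belongs to the knockout arrays more than to SmoA1 cerebellum with Pycard was tested by limma on all 9 arrays, where the pool cancels. Of 19087 genes 3 passed (0.0157%), and 1264 had an unadjusted p under 0.05. Of these, 1 was higher in knockout (0.00524%) and 2 were lower (0.0105%). Pycard differed by -3.47 (limma adjusted p = 0.00422). Slx1b, a structure-specific nuclease gene, differed by -2.39 (limma adjusted p = 0.000177), and its 2 features had knockout means of 0.02 and -3.71, so its value rests on 1 feature. Against the pool Slx1b stood at -1.79, -1.87, -1.76 and -1.96. Gdpd3, a lysophospholipase D gene with 1 feature, differed by 2.54 (limma adjusted p = 0.00422). The ratios of Gdpd3 against the pool were 0.955, 0.996, 1.93 and 1.02 in knockout, beside a wild-type mean of -1.31 ± 0.17 (SD, n = 5). With the replicate number as a block the adjusted p was 0.544 for Pycard, 0.127 for Gdpd3 and 0.0323 for Slx1b, the 1 gene then called. Why Slx1b and Gdpd3 differ between the genotypes was not tested, so neither is shown to respond to the loss of Pycard.

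For every other named gene the smallest adjusted p of the difference between genotypes was 0.753. The knockout and wild-type arrays did not overlap in 14 of the 122 named genes and in 2.14% of all genes, with knockout above in 1.03% and below in 1.12%. These 14 include Pycard, Slx1b and Gdpd3, and passing the test between genotypes was a rule for naming. The count is thus not to be read against the share of all genes. The 95% intervals that follow are of single genes and are not adjusted for the number of genes tested. None of these genes passed between genotypes, also where the interval leaves out 0. For Aurkb the wild-type mean was 4.77 ± 0.69 (SD, n = 5) beside 3.14 in knockout, with a 95% interval of the difference from -2.80 to -0.45. For Plk1 it was 2.85 ± 0.59 (SD, n = 5) beside 1.66, with an interval from -1.90 to -0.48. For Mag it was -1.51 ± 0.34 (SD, n = 5) beside -0.99, with an interval from 0.12 to 0.92. For Casp1 it was 0.96 ± 0.41 (SD, n = 5) beside 0.76, with an interval from -0.66 to 0.26. For Tmem87a the wild-type arrays ran from -2.32 to 0.25 and overlapped the knockout arrays. Wild-type 1 and 3 stood at -0.157 and 0.252, and wild-type 2, 4 and 5 at -2.323, -1.869 and -2.098. H2bc18 was split over the same wild-type arrays, at 0.436 and -0.365 against -1.998, -2.344 and -2.258. The cause of these splits was not tested. The list mean of the mitotic genes was 2.46 ± 0.35 (SD, n = 5) on wild-type arrays and 1.45 ± 0.69 (SD, n = 4) on knockout arrays. That of the myelin genes was -0.85 ± 0.09 (SD, n = 5) and -0.50 ± 0.08 (SD, n = 4), without overlap. The arrays did not overlap in 2 further lists. For interneurons the list mean was -0.41 ± 0.06 (SD, n = 5) on wild-type and -0.13 ± 0.20 (SD, n = 4) on knockout arrays. For the cyclin-dependent kinase inhibitor and E2F list it was 0.76 ± 0.15 (SD, n = 5) and 0.41 ± 0.20 (SD, n = 4), and no list was tested. Both genotypes were set against the same pool, so these pairs of values share their reference.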

How the data were processed

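RNA of cerebellum was hybridised on Agilent arrays with 2 colours, per the labels. The deposited values are log2 ratios of sample over pool, 1 per feature and array, and Agilent Feature Extraction is the tool in the submitters' processing notes. For its version, background correction and dye normalization no statement was found in the sources used here. The base of the logarithm was read from the values, since 20 to 110 values on each knockout array are larger in size than 4.82, the log10 limit for 16-bit scanner signals. The direction was read from the dyes and from Pycard. Array medians lie between 0 and 0.006, and exact zeros make up 1.46% to 6.52% of the features of a knockout array. No intensities were used here, so dim and saturated spots were not set apart. The number of arrays limits the precision.

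Of 45220 features 33653 have 1 gene symbol, 56 several and 11511 none. Symbols were compared by gene ID with RefSeq (33517 features matched, 0 symbols changed), and features of 1 symbol were averaged into 19087 genes, of which 8343 have more than 1 feature. The eBayes moderated test of limma 3.58.1 (R 4.3.3, two-sided, after lmFit) compared the mean of the 4 knockout arrays against 0 with Benjamini-Hochberg adjustment over these genes at 0.05, and knockout minus wild-type on 9 arrays in the same way. An exact sign-flip test over 4 arrays cannot give a p under 0.125. On simulated data of 19087 genes, with 200 shifted, the test against 0 recovered 0% of shifts of 0.5, 48.5% of shifts of 1, 86.5% of shifts of 2 and 93.5% of shifts of 3. The false calls were 0, 11, 6 and 11. The test between genotypes recovered 89% of shifts of -2, with 16 false calls. Every simulated array had the gene SDs of the knockout arrays, so that share leaves out the wild-type spread. Lists of 822 genes (752 measured) were described by counts and medians.

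The genes, lists and rules were chosen with earlier results of these data known. Named were Pycard and a fixed set, the 12 highest and 12 lowest called genes, from each list the 2 with the lowest p and the 1 with the largest mean, the 8 most variable genes and those that passed between genotypes. Predicted and numbered transcripts were left out, and called list members are given beside these. The other settings were leaving out each array, quantile normalization, median centring, equal array scale, features tested singly, unnamed features included, exact zeros as missing or left out, a trended robust prior, array weights, a stricter threshold and the replicate block. Replicate numbers 1 to 4 occur in both genotypes, and after the group mean was taken off, arrays of the same number correlated at 0.251, 0.214, 0.347 and 0.204. All exceed 0.1, so the numbers were taken as a possible pairing, although the highest value was with wild-type 1 for knockout 2 (0.236) and with wild-type 5 for knockout 4 (0.247).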

Additional observations from a re-analysis of the deposited data

Results flagged for a closer look

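Among 154 groups of 4 knockout values (122 named genes and 32 list means), 14 held 1 array whose gap to the nearest of the others took up most of the range (Dixon's test for 4 values, at 95%), and chance alone sets apart about 1 in 20 groups. The count is not to be read against that share, since 8 of the genes were named for their large spread over the same arrays (Krtap19-5, Prol1, Icosl and Upp1 are among them) and list means share values with their genes. On knockout 3 these were Calb1 at -1.45, Gad1 at -1.91, Gdf10 at -2.23, Krtap19-5 at -5.44, Icosl at -5.78, Ccl19 at -0.73, Gdpd3 at 1.93 and the mean of the Purkinje cell list at -0.80. Calb1 and Gad1 belong to that list, and Gdf10 marks Bergmann glia, which surround Purkinje cells. On knockout 4 they were Nxph2 at 5.07, Prol1 at 6.32 and Upp1 at 5.97. On knockout 1 they were Pole at 1.19 (1.89 in 1 feature and 0.50 in the other), H1f5 at 0.95 and the mean of the cyclin-dependent kinase inhibitor and E2F list at 0.12. None of the values on knockout 3 or 4 beyond 5 in size belongs to a gene that passed the test.

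The genotypes differed by the test of the difference in 3 genes, Pycard by -3.47, Slx1b by -2.39 and Gdpd3 by 2.54.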

How the results depend on the processing

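With all 4 arrays, 360 genes were higher and 326 lower, 171 and 63 of them by at least 1. Over the fits without 1 knockout array these counts ranged from 0 to 125 for higher, 0 to 12 for lower, 0 to 125 for higher by at least 1 and 0 to 12 for lower by at least 1. Without knockout 2 there were 0 and 0, without knockout 3 there were 1 and 6, and without knockout 4 there were 8 and 3. Quantile normalization gave 671 and 574 (282 higher by at least 1), equal array scale 666 and 575 (263), and array weights 2540 and 2867 (397 and 141). Leaving out genes with an exact zero gave 559 higher, single features gave 97 lower by at least 1, and unnamed features included gave 0 and 4. A trended robust prior gave 0 and 0, with 5467 genes at an unadjusted p under 0.05, and an adjusted p under 0.01 left 0 and 2. Of the genes called with all 4 arrays, 660 of 686 remained after quantile normalization and 100 of 686 without knockout 1. Among the named genes, 65 lost their call without knockout 2 and with the trended prior, and none of these 65 changed direction in any setting run. In named genes without a call the sign could change, as for Cdkn1b without knockout 4. Such a change was not counted when the mean moved by less than the SD over the 4 arrays. The cause of the lost calls was not tested.

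With the replicate number as a block, the comparison between genotypes called 1 gene in place of 3 (1358 with an unadjusted p under 0.05). The numbers are only a possible pairing, and the block uses up degrees of freedom.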

Other observations

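Other genes varied over the 9 arrays much as Creb3l3 did. Pearson's r with Creb3l3 was 0.987 for Syt6, 0.985 for Duox2, 0.985 for Pced1b, 0.985 for Trim68, 0.971 for Evx2 and 0.967 for Kif12, the 6 highest values. The measure was chosen after the values were seen and describes arrays that share their reference. On wild-type 5 these 6 genes lay between -0.85 and -0.16, and on knockout 4 between 0.31 and 2.06. On wild-type 3 they lay between 3.93 and 5.44.

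The 8 genes that varied most over the knockout arrays had 1 or 2 extreme arrays each. S100a7a stood at -0.74, -0.16, 1.52 and -11.43, Fgf3 at 1.47, 0.10, 0.00 and -5.88, and Cd300c at -0.64, -3.56, 3.63 and -0.23. Xist stood at -0.09, 0.40, 1.37 and 0.94, higher on the arrays where the Y-linked genes were low.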
